A study of Mus musculus with 8 samples.

Results

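Mitophagy, the removal of mitochondria by autophagy, was followed through 10 genes in the transcriptome of Lewis lung carcinoma (LLC) cells, a mouse lung cancer line. The genes were the receptors Bnip3, Bnip3l and Fundc1, the kinases Pink1 and Ulk1, Becn1, the adaptor Sqstm1, the ATG8 family genes Map1lc3b and Gabarapl1, and the stress gene Ddit4. They were chosen with earlier results of these data known and matched by symbol, and 10 of 10 were found among the 53700 genes of the count table.

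WT cells and FIH-KO cells, which lack the asparagine hydroxylase FIH (gene Hif1an) that restrains the hypoxia-inducible factors (HIFs), were each cultured in normoxia (21% O2) or hypoxia (1% O2). The study's figure legends give 16 hours of culture. Each of the 4 groups had 2 mRNA libraries, 8 in all. The knockout was made by delivering Cas9 protein with a guide RNA against exon 2 of Hif1an, followed by single-cell dilution. Which clone was sequenced, whether there was more than 1, and whether the WT cells were untreated or had received a control guide was not given in the sources used here, so loss of FIH and other differences between a clone and the WT cells cannot be told apart. Nothing stated that the libraries of a group came from separate cultures, and the p-values therefore measure only the spread between libraries, which may be technical. Total counts ran from 14519731 in WT hypoxia library 2 to 18177016 in WT hypoxia library 1, and no pair of libraries within a group was identical.

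Damaged or surplus mitochondria are taken up by autophagosomes through a receptor route and a ubiquitin route. In the receptor route, outer membrane proteins such as BNIP3, NIX (the product of Bnip3l) and FUNDC1 bind ATG8 proteins on the growing autophagosome directly, and in the ubiquitin route the kinase PINK1 builds up on depolarized mitochondria, where chains of ubiquitin form and bring in adaptors such as p62 (Sqstm1). Bnip3, Bnip3l and Ddit4 are textbook targets of HIF in hypoxia, and the product of Ddit4, REDD1, restrains mTORC1, the kinase complex that holds autophagy back when nutrients are plentiful. These are levels of mRNA, which do not measure the flux of mitochondria through autophagy.

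Levels are given as CPM, counts scaled to a common library size, and differences as log2 fold changes, where 1 is a doubling, with their standard error (SE). Each was tested with edgeR's quasi-likelihood test, and p was adjusted over all tested genes by the Benjamini-Hochberg method. A gene was called higher or lower where the adjusted p was under 0.05.

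The labels were checked first. Hif1an (ENSMUSG00000036450.5, chr19:44551286-44568723 of GRCm39) was counted at 84.6 and 82.3 CPM in WT normoxia, 90.2 and 84.04 in WT hypoxia, 34.8 and 37.7 in FIH-KO normoxia, and 45.5 and 51.03 in FIH-KO hypoxia. The 4 FIH-KO libraries lay below the 4 WT libraries without overlap. Its log2 fold change between FIH-KO and WT was -1.20 in normoxia (SE 0.12, adjusted p = 3.09e-05, edgeR) and -0.85 in hypoxia (SE 0.12, adjusted p = 0.000314). In FIH-KO cells Hif1an was called higher in hypoxia than in normoxia, by 0.41 (SE 0.12, adjusted p = 0.0306). That call was lost at 0.443 in the fit of the 4 FIH-KO libraries (adjusted p = 0.0937), at 0.435 and 0.434 without WT normoxia library 1 or 2 (adjusted p = 0.0576 each) and at 0.496 without FIH-KO normoxia library 2 (adjusted p = 0.0548). It was also lost at 0.376 without FIH-KO normoxia library 1 (adjusted p = 0.142) and 0.325 without FIH-KO hypoxia library 2 (adjusted p = 0.115), the range being 0.0261 to 0.142. The tested genes of chromosome 19 had median log2 fold changes of -0.38 and -0.45 for FIH-KO against WT in normoxia and in hypoxia, and the part of a chromosome-wide shift in the Hif1an value was not tested.

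Hypoxia was checked on 8 HIF target genes. In WT cells 8 of 8 were higher in hypoxia (median log2 fold change 2.82), and in FIH-KO cells 7 of 8 were (median 2.53), the exception being Car9, at mean CPM of 0.261 in normoxia and 0.221 in hypoxia. Ndrg1 rose from a mean of 52.1 to 814 CPM in WT cells and from 84.7 to 902 CPM in FIH-KO cells. Between genotypes, 2 of the 8 were higher in FIH-KO cells in normoxia (median 0.55), and 3 were higher and 1 lower in hypoxia (median 0.19). Of all tested genes, 15.2% were higher in normoxia, and 14.1% higher and 13.9% lower in hypoxia. Vegfa, which encodes an angiogenic factor, was higher in FIH-KO normoxia by 1.20 on the log2 scale (SE 0.16, adjusted p = 0.000296, edgeR). Ndrg1, the other gene called there, was higher by 0.70 (SE 0.225, adjusted p = 0.0351) and kept its call under 8 of 13 alternatives. The gene lower in hypoxia was Car9, at means of 2.295 CPM in WT and 0.221 in FIH-KO cells. Pdk1 had means of 87.0 CPM in WT normoxia and 60.0 in FIH-KO normoxia. With 1 library left out or another setting, the counts between genotypes ranged from 1 to 4 higher and 0 to 1 lower in normoxia, and from 2 to 5 higher with 1 lower in hypoxia. The lower call in normoxia appeared with DESeq2, with no filter, with the replicate number as a block, and without FIH-KO normoxia library 1 or either FIH-KO hypoxia library.

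Cell identity was checked on marker genes. Among 5 epithelial and carcinoma markers, Krt8 and Krt18 had median levels of 184 and 159 CPM, while Epcam had 0 counts and Cdh1 at most 1 count in any library. The mesenchymal marker Vim ran from 3189 to 5442 CPM. Of 8 markers of leukocytes, endothelium, fibroblasts and smooth muscle, 7 stayed under 2 CPM in every library, with Cd3e and Adgre1 at 0. The exception was the smooth muscle actin gene Acta2, the most abundant of them in 6 of the 8 libraries, at a mean of 3.40 CPM in WT normoxia and 29.05 in FIH-KO normoxia. The sum of these 8 markers was 5.46 and 3.55 CPM in WT normoxia, 3.25 and 3.21 in WT hypoxia, 13.3 and 47.8 in FIH-KO normoxia, and 2.06 and 6.05 in FIH-KO hypoxia. Whether this difference bears on the genes below was not tested.

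By these lists, 1 of 3 tested epithelial markers was higher and 1 lower in WT hypoxia (median log2 fold change -0.30). The same list had 1 higher in FIH-KO hypoxia (median -0.32) and 1 higher between genotypes, Krt8, in normoxia (median -0.05) and in hypoxia (median 0.49). Of the 4 mesenchymal markers, 1 rose and 1 fell with hypoxia in each genotype (medians 0.000943 and -0.039), and 3 in normoxia and 2 in hypoxia were higher in FIH-KO cells (medians 0.48 and 0.42). Of the 3 tested markers of other cell types, 1 rose and 1 fell in WT hypoxia (median -0.90) and 1 fell in FIH-KO hypoxia (median -0.58). Between genotypes 1 was higher in normoxia (median 0.99), and 1 was higher and 1 lower in hypoxia (median 1.31). The lower call in hypoxia was lost without WT hypoxia library 1. The higher one there, Acta2, had a log2 fold change of 2.96, between 1.45 and 3.74 over the alternatives. The lower call of Krt18 in WT hypoxia was lost without WT normoxia library 2 or either WT hypoxia library. That of Acta2 was lost without WT normoxia library 1 or either WT hypoxia library. Over the alternatives the log2 fold change stayed between -0.733 and -0.503 for Krt18 and between -3.87 and -2.84 for Acta2. The higher call of Fn1 in FIH-KO hypoxia was lost in the fit of the 4 FIH-KO libraries and without FIH-KO normoxia library 1 or FIH-KO hypoxia library 1. Its log2 fold change was 0.596, and between 0.43 and 0.829 over the alternatives. Between genotypes, the mesenchymal calls in FIH-KO cells ranged from 1 to 3 in each oxygen condition, and Acta2 was the marker of other cell types called higher in FIH-KO cells, a call that in hypoxia was lost without either WT normoxia library, either WT hypoxia library or FIH-KO hypoxia library 2.

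The 10 genes passed the filter on low counts, and 13933 genes were tested. The 10 were chosen with earlier results of these data known, and Bnip3, Bnip3l and Ddit4 were already known as HIF targets. Their counts beside the shares of all genes are therefore a description and not a test. In WT cells, hypoxia raised 4 of the 10 genes, against 16.9% of all tested genes, and lowered 1, against 15.5%. In FIH-KO cells it raised 4, against 8.84%, and lowered 1, against 8% of all tested genes. Bnip3, Bnip3l, Sqstm1 and Ddit4 were the genes called higher in each genotype, and Ulk1 was the gene called lower in each. In normoxia 5 of the 10 were higher in FIH-KO than in WT cells, against 15.2%, and 0 lower, against 13%. These were Pink1, Sqstm1, Map1lc3b, Gabarapl1 and Ddit4. In hypoxia 3 of 10 were higher in FIH-KO cells, against 14.1%, and 0 were lower, against 13.9%, and they were Fundc1, Pink1 and Map1lc3b. Becn1 was called in no comparison.

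The comparisons share libraries, so calls in one are not independent of calls in another. The median log2 fold change of the 10 genes was 0.23 and 0.15 for hypoxia in WT and FIH-KO cells, and 0.41 and 0.31 for FIH-KO against WT in normoxia and in hypoxia. Over all tested genes the same medians lay between -0.0321 and -0.00106. When each of the 8 libraries was left out in turn, the number of the 10 genes called was 3 to 5 for hypoxia in FIH-KO cells and 3 to 6 for FIH-KO against WT in normoxia. It was 3 without WT normoxia library 1, without WT normoxia library 2 or without FIH-KO normoxia library 1 in each of these comparisons, and also 3 without FIH-KO hypoxia library 1 in the first.

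**Figure D1:**
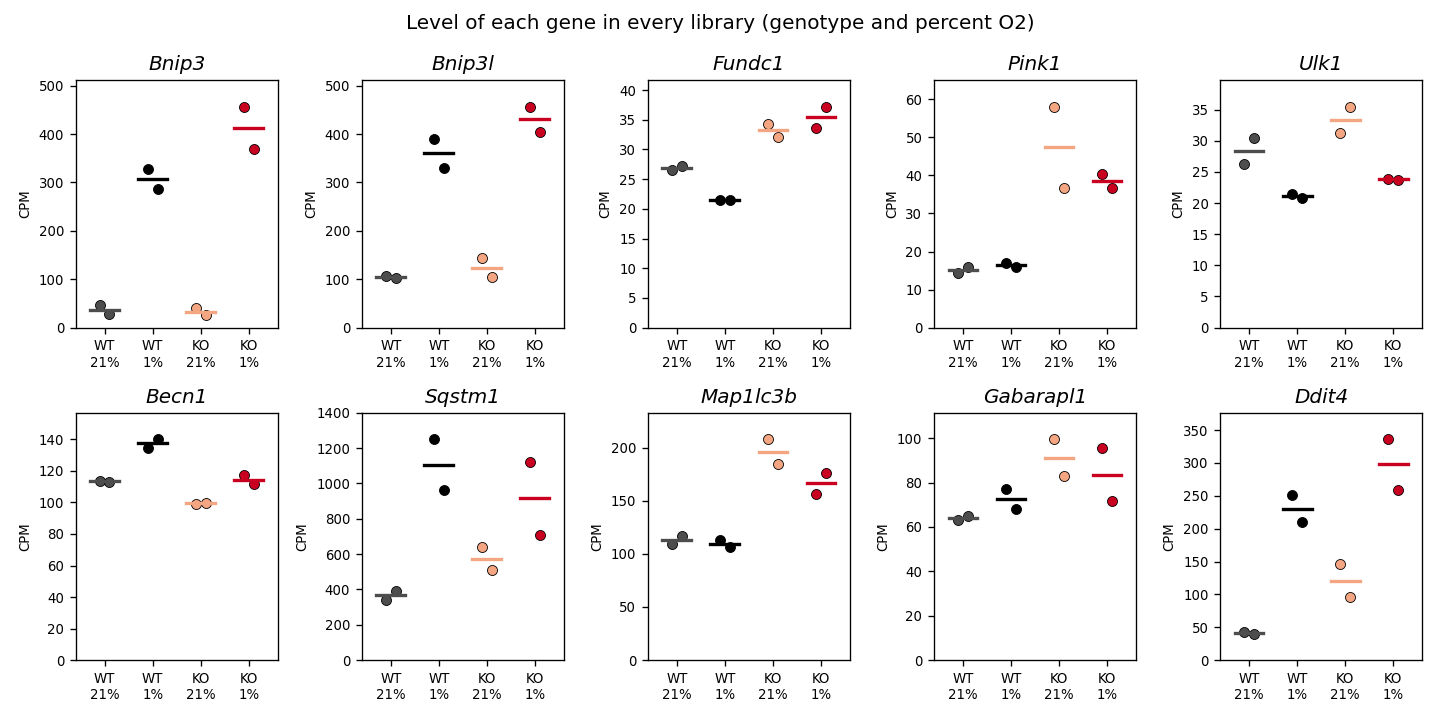
Level of the 10 genes in CPM (counts scaled to a common library size, vertical axes from 0, 1 scale per gene) in WT and FIH-KO (KO) LLC cells at 21% or 1% O2. Each point is 1 library and each bar the mean of 2. Bnip3 lay between 25.1 and 46.9 CPM in the 4 normoxia libraries and between 287 and 457 CPM in the 4 hypoxia libraries, while Pink1 separated by genotype.

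Bnip3 (ENSMUSG00000078566.9, chr7:138490690-138511253 of GRCm39, minus strand) encodes a receptor of the mitochondrial outer membrane. It was at 46.9 and 27.9 CPM in WT normoxia, 328 and 287 in WT hypoxia, 40.1 and 25.1 in FIH-KO normoxia, and 457 and 369 in FIH-KO hypoxia. The hypoxia libraries were far above the normoxia libraries in both genotypes, the genotypes overlapped in normoxia, and in hypoxia both FIH-KO libraries lay above both WT libraries. Hypoxia raised Bnip3 by 3.04 on the log2 scale in WT cells (SE 0.25, adjusted p = 9.48e-06, edgeR), an 8.23-fold change, and by 3.66 in FIH-KO cells (SE 0.25, adjusted p = 3.45e-06), a 12.7-fold change. Between genotypes the log2 fold change was -0.20 in normoxia (SE 0.24, adjusted p = 0.584) and 0.43 in hypoxia (SE 0.22, adjusted p = 0.183), and neither passed the threshold. The value in normoxia turned to 0.195 without WT normoxia library 1 and to 0.0783 without FIH-KO normoxia library 2. That in hypoxia passed with no filter on low counts (0.462, adjusted p = 0.0028) and with the replicate number as a block (0.417, adjusted p = 0.0352). The fit with no filter took the spread between libraries as known, which makes its p-values small. Over the alternatives the log2 fold change in hypoxia lay between 0.304 and 0.576.

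Bnip3l (ENSMUSG00000022051.16, chr14:67222678-67246356, minus strand) encodes NIX, a receptor related to BNIP3 that clears mitochondria from maturing red cells. Its levels were 106 and 102 CPM in WT normoxia, 391 and 330.3 in WT hypoxia, 144 and 104 in FIH-KO normoxia, and 457 and 405 in FIH-KO hypoxia. Again the hypoxia libraries were apart from the normoxia libraries. The genotypes overlapped in normoxia and were narrowly apart in hypoxia. Hypoxia raised Bnip3l by 1.79 on the log2 scale in WT cells (SE 0.15, adjusted p = 1.41e-05, edgeR) and by 1.79 in FIH-KO cells (SE 0.15, adjusted p = 1.87e-05), a 3.47-fold change each. FIH-KO against WT gave 0.26 in normoxia (SE 0.15, adjusted p = 0.231) and 0.26 in hypoxia (SE 0.15, adjusted p = 0.224), and neither was called. In normoxia 1 FIH-KO library set this value, which was -0.0151 without FIH-KO normoxia library 1 and 0.446 without library 2 (adjusted p = 0.0458, the lowest over the alternatives, the highest being 0.964).

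Fundc1 (ENSMUSG00000025040.14, chrX:17386204-17438572, minus strand) encodes an outer membrane receptor studied chiefly in hypoxic mitophagy. Its libraries gave 26.5 and 27.2 CPM in WT normoxia, 21.4 and 21.4 in WT hypoxia, 34.4 and 32.07 in FIH-KO normoxia, and 33.7 and 37.2 in FIH-KO hypoxia. The 4 FIH-KO libraries were above the 4 WT libraries. Unlike Bnip3 and Bnip3l it was not called higher in hypoxia, with log2 fold changes of -0.32 in WT cells (SE 0.13, adjusted p = 0.0811, edgeR) and 0.09 in FIH-KO cells (SE 0.13, adjusted p = 0.678). FIH-KO cells had more Fundc1 mRNA in hypoxia, by 0.73 on the log2 scale (SE 0.13, adjusted p = 0.00185), while the value in normoxia, 0.31, was not called (SE 0.13, adjusted p = 0.1). The median over 471 tested genes of the X chromosome was 0.08 in normoxia and 0.14 in hypoxia. Without FIH-KO hypoxia library 1 the fall in WT hypoxia passed the threshold (-0.365, adjusted p = 0.039, the range over the alternatives being 0.039 to 0.227).

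Pink1 (ENSMUSG00000028756.13, chr4:138039346-138053618, minus strand) encodes the kinase that marks depolarized mitochondria. It was at 14.3 and 16.05 CPM in WT normoxia, 17.1 and 15.97 in WT hypoxia, 58.1 and 36.8 in FIH-KO normoxia, and 40.4 and 36.6 in FIH-KO hypoxia. Every FIH-KO library was above every WT library, and oxygen did not separate the libraries of either genotype. FIH-KO against WT gave 1.64 on the log2 scale in normoxia (SE 0.20, adjusted p = 0.00013, edgeR), a 3.12-fold difference, and 1.22 in hypoxia (SE 0.20, adjusted p = 0.000954), a 2.33-fold difference. For hypoxia the log2 fold changes were 0.13 in WT cells (SE 0.20, adjusted p = 0.676) and -0.30 in FIH-KO cells (SE 0.19, adjusted p = 0.307). The latter depended on the FIH-KO normoxia libraries and was 0.0839 without library 1 and -0.572 without library 2 (adjusted p = 0.0483, the range being 0.0483 to 0.817), and the value in WT cells was -0.00024 without WT normoxia library 1. The tested genes of chromosome 4 had a median of -0.01 in both comparisons of genotype.

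Ulk1 (ENSMUSG00000029512.12, chr5:110931496-110957995, minus strand) encodes the kinase that starts autophagosome formation and that mTORC1 inhibits. Levels were 26.2 and 30.5 CPM in WT normoxia, 21.4 and 20.8 in WT hypoxia, 31.3 and 35.5 in FIH-KO normoxia, and 23.9 and 23.8 in FIH-KO hypoxia. Hypoxia libraries were below normoxia libraries in each genotype, and FIH-KO libraries were above WT libraries at each oxygen level. In WT hypoxia Ulk1 fell by 0.43 on the log2 scale (SE 0.14, adjusted p = 0.0383, edgeR), and in FIH-KO hypoxia by 0.49 (SE 0.14, adjusted p = 0.0343). These were small changes near the threshold. The first was lost at -0.351 without WT normoxia library 2 (adjusted p = 0.228), -0.483 without WT hypoxia library 1 (adjusted p = 0.0932), -0.41 without WT hypoxia library 2 (adjusted p = 0.138) and -0.44 with no filter (adjusted p = 0.0588), the range being 0.0196 to 0.228. The other was lost in 7 of 8 fits that left out a library, all but the one without WT hypoxia library 2, and in the fit of the 4 FIH-KO libraries alone (0.105), the range being 0.0326 to 0.205. In those fits the log2 fold change was -0.368 without FIH-KO normoxia library 2 and between -0.556 and -0.457 in the others. FIH-KO against WT was 0.23 in normoxia (SE 0.14, adjusted p = 0.237) and 0.17 in hypoxia (SE 0.14, adjusted p = 0.402), with no call.

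Becn1 (ENSMUSG00000035086.14, chr11:101176769-101193122, minus strand) encodes Beclin 1, a subunit of the lipid kinase complex that nucleates the autophagosome. Its libraries were close together within each group, at 114 and 113 CPM in WT normoxia, 135 and 140.2 in WT hypoxia, 98.9 and 99.9 in FIH-KO normoxia, and 117 and 112 in FIH-KO hypoxia. Libraries of hypoxia lay above normoxia libraries in each genotype and FIH-KO below WT at each oxygen level, by small margins. Its log2 fold changes ran from -0.26 for FIH-KO against WT in hypoxia (SE 0.10, adjusted p = 0.0648, edgeR) to 0.28 for hypoxia in WT cells (SE 0.10, adjusted p = 0.0505). The latter passed the threshold without FIH-KO hypoxia library 2 (0.268, adjusted p = 0.0434) and in the fit of the 4 WT libraries (0.279, adjusted p = 0.0197), with a range up to 0.303.

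Sqstm1 (ENSMUSG00000015837.16, chr11:50089572-50107684, minus strand) encodes p62, an adaptor that links ubiquitin on cargo to ATG8 proteins and is itself degraded by autophagy. It was at 340 and 392 CPM in WT normoxia, 1251 and 960.4 in WT hypoxia, 639 and 508 in FIH-KO normoxia, and 1123 and 708 in FIH-KO hypoxia. WT normoxia was the lowest group, FIH-KO normoxia came next, and the hypoxia groups overlapped each other at the top. Hypoxia raised Sqstm1 by 1.59 on the log2 scale in WT cells (SE 0.21, adjusted p = 0.000205, edgeR), a 3.02-fold change, and by 0.67 in FIH-KO cells (SE 0.20, adjusted p = 0.0406), a 1.6-fold change. FIH-KO normoxia was above WT normoxia by 0.65 (SE 0.20, adjusted p = 0.0327), and in hypoxia the value was -0.27 (SE 0.20, adjusted p = 0.352).

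The smaller Sqstm1 calls were near the threshold, and some fits that missed it had a log2 fold change as large as the fit of 8 libraries. For hypoxia in FIH-KO cells, the value fell short of the threshold at 0.54 without FIH-KO normoxia library 2 (adjusted p = 0.196, edgeR) and at 0.331 without FIH-KO hypoxia library 1 (adjusted p = 0.252). It also missed the threshold at 0.694 without WT normoxia library 1 (adjusted p = 0.0531), 0.694 without WT normoxia library 2 (adjusted p = 0.0541), 0.866 without FIH-KO normoxia library 1 (adjusted p = 0.0596) and 0.703 in the fit of the 4 FIH-KO libraries (adjusted p = 0.0744). The WT normoxia libraries are not among the 4 compared there. FIH-KO against WT in normoxia missed it at 0.519 without WT normoxia library 1 (adjusted p = 0.23), 0.452 without FIH-KO normoxia library 1 (adjusted p = 0.243) and 0.731 without WT normoxia library 2 (adjusted p = 0.0885). Over the alternatives these log2 fold changes lay between 0.331 and 0.964 and between 0.452 and 0.778. The difference in hypoxia was -0.601 without FIH-KO hypoxia library 1 (adjusted p = 0.0264) and 0.0264 without FIH-KO hypoxia library 2 (adjusted p = 0.935), within a range of 0.0264 to 0.939.

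Map1lc3b (ENSMUSG00000031812.17, chr8:122317100-122325499, plus strand) encodes LC3B, the ATG8 protein on autophagosome membranes to which receptors dock. It stood at 109 and 116 CPM in WT normoxia, 113 and 106 in WT hypoxia, 208 and 184 in FIH-KO normoxia, and 156.5 and 176.5 in FIH-KO hypoxia. The 4 FIH-KO libraries were above the 4 WT libraries, and in WT cells the oxygen groups overlapped. FIH-KO against WT gave 0.80 on the log2 scale in normoxia (SE 0.11, adjusted p = 0.000384, edgeR), a 1.74-fold difference, and 0.60 in hypoxia (SE 0.11, adjusted p = 0.0022), a 1.52-fold difference. For hypoxia it was -0.04 in WT cells (SE 0.11, adjusted p = 0.814) and -0.24 in FIH-KO cells (SE 0.11, adjusted p = 0.174). The tested genes of chromosome 8 had medians of -0.05 and -0.12 for FIH-KO against WT in normoxia and in hypoxia.

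Gabarapl1 (ENSMUSG00000030161.9, chr6:129509725-129520544, plus strand) encodes another ATG8 protein, of the GABARAP branch. Its levels were 63.2 and 64.8 CPM in WT normoxia, 76.95 and 68.2 in WT hypoxia, 99.6 and 82.9 in FIH-KO normoxia, and 95.4 and 71.7 in FIH-KO hypoxia. Genotypes were apart in normoxia and overlapped in hypoxia. The log2 fold change between FIH-KO and WT was 0.51 in normoxia (SE 0.15, adjusted p = 0.0216, edgeR) and 0.20 in hypoxia (SE 0.15, adjusted p = 0.336). The call in normoxia was lost at 0.464 without WT normoxia library 1 (adjusted p = 0.155), 0.505 without WT normoxia library 2 (adjusted p = 0.112) and 0.352 without FIH-KO normoxia library 1 (adjusted p = 0.203), the range over the alternatives being 0.0015 to 0.203. Hypoxia gave 0.18 in WT cells (SE 0.15, adjusted p = 0.379) and -0.13 in FIH-KO cells (SE 0.15, adjusted p = 0.607). The latter was 0.029 without FIH-KO normoxia library 1 and 0.0602 without FIH-KO hypoxia library 2.

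Ddit4 (ENSMUSG00000020108.5, chr10:59785491-59788492, minus strand) encodes REDD1, which acts through the TSC complex to restrain mTORC1 in hypoxia and other stress. It was at 43.5 and 39.04 CPM in WT normoxia, 251 and 209.6 in WT hypoxia, 146 and 95.4 in FIH-KO normoxia, and 336 and 259 in FIH-KO hypoxia. The groups followed each other without overlap, from WT normoxia through FIH-KO normoxia and WT hypoxia to FIH-KO hypoxia. Hypoxia raised Ddit4 by 2.48 on the log2 scale in WT cells (SE 0.20, adjusted p = 8.9e-06, edgeR), a 5.58-fold change, and by 1.30 in FIH-KO cells (SE 0.19, adjusted p = 0.000823), a 2.46-fold change. In normoxia FIH-KO cells had 2.93-fold more Ddit4 mRNA than WT cells, a log2 fold change of 1.55 (SE 0.19, adjusted p = 0.000179). In hypoxia the difference was 0.37 (SE 0.18, adjusted p = 0.157) and missed the threshold. It passed with no filter on low counts (0.407, adjusted p = 0.0118), a fit that took the spread between libraries as known. It also passed with the replicate number as a block (0.364, adjusted p = 0.0395). Over the alternatives the log2 fold change in hypoxia lay between 0.211 and 0.551. The tested genes of chromosome 10 had medians of 0.185 and 0.14 for FIH-KO against WT in normoxia and in hypoxia.

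**Figure D2:**
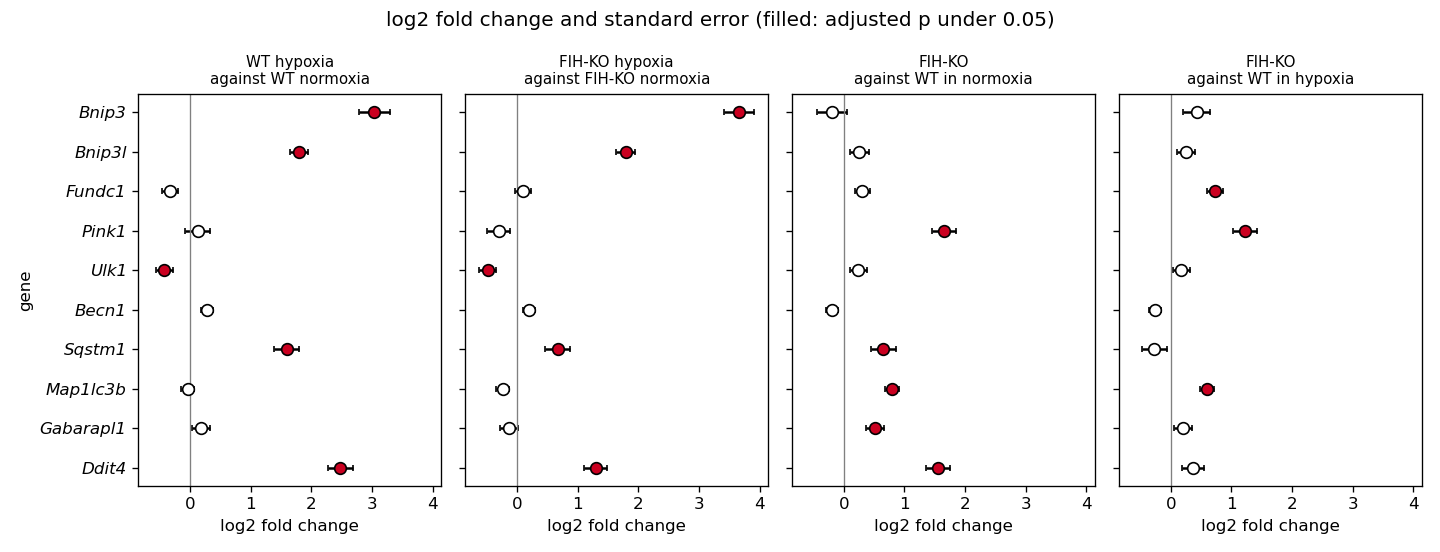
log2 fold change (horizontal axis, same scale in the 4 panels) of the 10 genes in each comparison, with bars of 1 standard error. Filled points had an adjusted p under 0.05 by edgeR's quasi-likelihood test. Bnip3, Bnip3l, Sqstm1 and Ddit4 are filled on the right of 0 in both hypoxia panels, and Pink1 and Map1lc3b in both genotype panels.

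Whether the effect of FIH loss differed between oxygen conditions was tested as the difference of the log2 fold changes. Of all tested genes 0% passed, and 0 of the 10 genes did. At an unadjusted p under 0.05, edgeR gave 925 of 13933 genes and 3 of the 10 (Ddit4, Sqstm1 and Fundc1). At an adjusted p under 0.05, DESeq2 called 40 genes, of which Ddit4 was 1 of the 10. For Ddit4 the difference of log2 fold changes was -1.18 (SE 0.27, adjusted p = 0.29, edgeR), that is, a smaller excess over WT in hypoxia than in normoxia. DESeq2 gave -1.17 with an adjusted p of 0.00752, and the fit with the replicate number as a block gave -1.16 with an adjusted p of 0.0493. With no filter on low counts Ddit4 passed at -1.16 (adjusted p = 6.52e-07, edgeR), and under no other alternative did it pass. For Sqstm1 the value was -0.92 (SE 0.29, adjusted p = 0.531, edgeR), and it passed only with no filter (-0.904, adjusted p = 5.57e-05). The fit with no filter took the spread between libraries as known, so its small p-values are not comparable with the others. For Fundc1 the difference was 0.42 (SE 0.19, adjusted p = 0.73), and for Bnip3 0.62 (SE 0.33, adjusted p = 0.783). A p that misses the threshold does not show that the effect was the same in both conditions.

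Levels were compared between genes as CPM per kilobase of annotated exons. That length joins the exons of all annotated transcripts of a gene, from 2715 bases for Ddit4 to 8203 for Sqstm1. It may exceed the length of the transcripts present, by an amount that differs between genes. The order of genes depends on it, and the SD of 2 libraries does not measure that error. In WT normoxia the order ran from Sqstm1 at 44.6 ± 4.5 (SD, n = 2) through Bnip3l at 18.9 ± 0.612, Gabarapl1 at 17.3 ± 0.3, Becn1 at 15.4 ± 0.0708, Ddit4 at 15.2 ± 1.16 and Map1lc3b at 14.8 ± 0.67 to Bnip3 at 8.66 ± 3.11, Fundc1 at 6.02 ± 0.113, Ulk1 at 3.81 ± 0.407 and Pink1 at 3.75 ± 0.312. Becn1, Ddit4 and Map1lc3b did not differ beyond 1 SD, nor did Fundc1 from Bnip3, nor Ulk1 from Pink1. In FIH-KO hypoxia, 4 genes stood together at the top, Sqstm1 at 112 ± 35.7, Ddit4 at 109.6 ± 20.2, Bnip3 at 95.6 ± 14.4 and Bnip3l at 78.3 ± 6.73 CPM per kilobase, with Gabarapl1 next at 22.6 ± 4.55. Sqstm1, Ddit4 and Bnip3 each lay within 1 SD of the next, while Bnip3l was further than 1 SD below Bnip3. By rank, Bnip3 was at 7 in WT normoxia, 3 in WT hypoxia, 8 in FIH-KO normoxia and 3 in FIH-KO hypoxia, and Ddit4 at 5, 2, 2 and 2 in the same order.

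Other genes of these pathways were followed as lists, described by counts and medians of log2 fold change. Of all tested genes, 16.9% were higher and 15.5% lower in WT hypoxia, and 8.84% and 8% in FIH-KO hypoxia. For FIH-KO against WT the shares were 15.2% higher and 13% lower in normoxia, and 14.1% and 13.9% in hypoxia. A count near these shares is not particular to a list. Among receptors and adaptors beyond the 10 genes, 8 of 10 were tested, since Nlrx1 and Calcoco2 had at most 7 counts and 1 count in any library. In WT hypoxia 1 was higher and 2 lower (median 0.12), and in FIH-KO hypoxia 1 was higher (median 0.01). FIH-KO cells had 3 higher and 2 lower in normoxia (median 0.24), and 1 higher and 2 lower in hypoxia (median 0.11). Optn, a ubiquitin-binding adaptor, rose in WT hypoxia from a mean of 3.82 to 9.94 CPM, by 1.38 on the log2 scale (SE 0.22, adjusted p = 0.0007, edgeR). The receptors Bcl2l13 and Phb2 were lower in FIH-KO normoxia, with log2 fold changes of -0.64 (SE 0.10, adjusted p = 0.00095) and -0.69 (SE 0.13, adjusted p = 0.00192). The higher calls in FIH-KO normoxia went to 0 without WT normoxia library 1, WT normoxia library 2 or FIH-KO normoxia library 1, and to 1 without either WT hypoxia library. Those in FIH-KO hypoxia against WT hypoxia ranged from 0 to 1 higher and from 0 to 2 lower, and the higher call in FIH-KO hypoxia against normoxia from 0 to 1. In WT hypoxia the range was 1 to 2 higher and 1 to 2 lower, with 1 lower without either WT normoxia library or WT hypoxia library 2.

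Among regulators of mitophagy around PINK1, 16 genes were tested. Hypoxia came with 1 higher and 2 lower in WT cells (median 0.03) and 1 lower in FIH-KO cells (median -0.015). FIH-KO against WT had 3 lower in normoxia (median -0.12), and 2 higher and 3 lower in hypoxia (median -0.03). Marchf5, a ubiquitin ligase of the outer membrane, was lower in FIH-KO hypoxia with a log2 fold change of -0.55 (SE 0.11, adjusted p = 0.00305, edgeR), at mean levels of 54.6 against 80.2 CPM. Over the alternatives the 3 lower in normoxia ranged from 0 to 4 with 0 to 2 higher, the 3 lower in hypoxia from 1 to 3 and the 2 higher there from 0 to 2. For hypoxia in WT cells the range was 0 to 3 higher and 0 to 4 lower, and in FIH-KO cells 0 to 1 each.

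Of the ULK and class III PI3K complexes 15 of 15 genes were tested. In WT hypoxia 4 were higher and 1 lower (median 0.08), and in FIH-KO hypoxia 0 were called by edgeR (median -0.01). The gene lower in WT hypoxia, Pik3r4, kept its call under 11 of 13 alternatives, with log2 fold changes from -0.559 to -0.422. FIH-KO cells had 8 higher in normoxia (median 0.34), and 5 higher and 2 lower in hypoxia (median 0.18). The 8 became 0 without FIH-KO normoxia library 1, 1 without WT normoxia library 1 and 2 without WT normoxia library 2, and the 5 became 3 without either WT hypoxia library. The 4 higher in WT hypoxia ranged from 0 to 4, and the 2 lower between genotypes in hypoxia from 0 to 2. Ulk2, the paralog of Ulk1, was at a mean of 34.2 CPM in WT normoxia and 54.8 in FIH-KO normoxia, a log2 fold change of 0.68 (SE 0.15, adjusted p = 0.0063, edgeR). The call was lost without WT normoxia library 1 or FIH-KO normoxia library 1, while the log2 fold change lay between 0.453 and 0.833 over the alternatives.

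In the ATG8 family and its conjugation machinery 13 of 13 were tested. WT hypoxia had 2 higher and 1 lower (median 0.01) and FIH-KO hypoxia 2 higher (median 0.07). FIH-KO against WT had 4 higher in normoxia (median 0.23) and 5 in hypoxia (median 0.33), with 0 lower in either by edgeR. Map1lc3a, the paralog of Map1lc3b, was at 6.86 ± 0.657 CPM (SD, n = 2) in WT normoxia and 20.2 ± 3.78 in FIH-KO normoxia, a log2 fold change of 1.56 (SE 0.21, adjusted p = 0.000302, edgeR). Gabarap was higher in FIH-KO hypoxia by 0.89 (SE 0.13, adjusted p = 0.000608), at 172.5 against 93.25 CPM. Atg12, which is conjugated to ATG5, was higher in FIH-KO normoxia by 0.74 (SE 0.13, adjusted p = 0.00121). The 5 in hypoxia became 2 without WT hypoxia library 1, and the 4 in normoxia ranged from 3 to 5. The 2 higher with hypoxia ranged from 1 to 2 in WT cells and from 0 to 2 in FIH-KO cells, and the 1 lower in WT cells from 0 to 2.

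Around mTORC1, 15 of 16 genes were tested. Hypoxia gave 2 higher and 3 lower in WT cells (median -0.07), and 1 higher and 2 lower in FIH-KO cells (median -0.13). FIH-KO cells had 5 higher in normoxia (median 0.22) and 3 in hypoxia (median 0.10). Sesn2, a sestrin that senses leucine and restrains mTORC1, rose in WT hypoxia from 49.9 ± 1.92 to 175 ± 42.01 CPM (SD, n = 2), by 1.81 on the log2 scale (SE 0.22, adjusted p = 0.000142, edgeR). Another sestrin, Sesn1, was higher in FIH-KO hypoxia by 1.44 (SE 0.25, adjusted p = 0.00145), at 39.1 against 14.46 CPM. Deptor, which encodes an mTOR inhibitor, fell in WT hypoxia, with a log2 fold change of -0.86 (SE 0.15, adjusted p = 0.00121). Tsc1, a subunit of the TSC complex, was higher in FIH-KO hypoxia by 0.55 (SE 0.11, adjusted p = 0.00344). The 5 in normoxia became 2 without WT normoxia library 1, 3 without WT normoxia library 2 and 1 without FIH-KO normoxia library 1, while the 3 in hypoxia ranged from 3 to 4. For hypoxia the range was 1 to 3 higher and 1 to 4 lower in WT cells, and 0 to 1 higher and 0 to 3 lower in FIH-KO cells.

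Lysosomal genes and TFEB family genes, 16 of 16 tested, had 2 higher and 3 lower in WT hypoxia (median 0.11) and 1 lower in FIH-KO hypoxia (median 0.04). FIH-KO cells had 9 higher and 2 lower in normoxia (median 0.45), and 8 higher and 1 lower in hypoxia (median 0.53). The protease gene Ctsd was at 114 ± 8.46 CPM in WT normoxia and 268 ± 12.5 in FIH-KO normoxia (SD, n = 2), a log2 fold change of 1.24 (SE 0.12, adjusted p = 2.97e-05, edgeR), and 1.03 in hypoxia (SE 0.12, adjusted p = 0.000104). The lysosomal membrane gene Lamp2 was higher by 1.07 in normoxia (SE 0.11, adjusted p = 5.5e-05) and by 1.06 in hypoxia (SE 0.11, adjusted p = 6.22e-05). Mitf, a relative of TFEB, was lower, at -1.37 in hypoxia (SE 0.23, adjusted p = 0.00111). Ctsl, another protease gene, was lower in FIH-KO normoxia at 743 against 1114 CPM, by -0.58 (SE 0.13, adjusted p = 0.0063), with the call kept under 12 of 13 alternatives. Tfeb was lower in FIH-KO hypoxia than in FIH-KO normoxia, at -1.09 (SE 0.26, adjusted p = 0.014), with the call kept under 10 of 13. The 9 in normoxia became 4 without WT normoxia library 1 and 5 without WT normoxia library 2, and the 8 in hypoxia ranged between 7 and 9. The 2 lower in normoxia became 1 without WT normoxia library 1. With hypoxia, 1 to 2 were higher and 0 to 3 lower in WT cells over the alternatives, and 0 to 1 higher and 0 to 2 lower in FIH-KO cells.

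Counting can mix genes that overlap. The libraries were made with a kit that keeps the strand, but the strand setting of the counting was not given in the sources used here, so reads of a gene and of its partner on the opposite strand may not be separated. Opposite Pink1 lies Ddost, with 27166 counts over the 8 libraries, and its log2 fold change between genotypes was 0.01 in normoxia and 0.10 in hypoxia, against 1.64 and 1.22 for Pink1. Zcchc14, opposite Map1lc3b, had 0.23 and -0.01 against 0.80 and 0.60. Mgat4b and Mrnip lie opposite Sqstm1, with log2 fold changes for hypoxia in WT cells of 0.02 and -0.59, against 1.59. None of these 4 partners was called in any of the 4 comparisons between groups by edgeR. The genes that overlap Bnip3, Becn1 and Gabarapl1 had at most 32 counts each over the 8 libraries. A processed copy of Bnip3l, Bnip3l-ps, had 209 counts over the 8 libraries and was also called higher in hypoxia, by 2.44 in WT cells (SE 0.47, adjusted p = 0.0024, edgeR) and by 1.59 in FIH-KO cells (SE 0.40, adjusted p = 0.0183). Reads of Bnip3l and of this copy may be split between them.

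Among the genes called higher in hypoxia in both genotypes (Bnip3, Bnip3l, Sqstm1 and Ddit4), the promoters of Bnip3 and Ddit4 are shown. They are from RefSeq on build GRCm38.p6, which is not the build of the gene positions above. Windows of 250 bases before to 50 after the annotated start matched 8 of the 10 genes, with no entry for Bnip3l and Becn1. The letters ACGTG and GCGTG, the core of hypoxia response elements, were searched on both strands, and are in capitals below, as read on the printed strand. The Bnip3 sequence is chr7:138909507-138909756 and the Ddit4 sequence chr10:59951771-59952020, both from the minus strand and each ending at the base before the start.
Bnip3: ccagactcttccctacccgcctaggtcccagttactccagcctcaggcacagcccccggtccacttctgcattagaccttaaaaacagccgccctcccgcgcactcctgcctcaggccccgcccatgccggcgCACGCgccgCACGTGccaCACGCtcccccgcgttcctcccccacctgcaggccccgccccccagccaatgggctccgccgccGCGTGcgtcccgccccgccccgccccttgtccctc
Ddit4: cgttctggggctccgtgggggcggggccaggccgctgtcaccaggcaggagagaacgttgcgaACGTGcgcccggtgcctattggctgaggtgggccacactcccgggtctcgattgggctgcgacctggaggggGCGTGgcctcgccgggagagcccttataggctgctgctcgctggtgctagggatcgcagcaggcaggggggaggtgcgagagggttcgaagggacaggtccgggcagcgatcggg
Counting back from -1, the base before the start, Bnip3 had ACGTG from -107 to -103 and on the other strand from -108 to -104, which together spell CACGTG, and GCGTG at -35 to -31 and on the other strand at -117 to -113 and -99 to -95. Ddit4 had ACGTG from -187 to -183 and GCGTG from -115 to -111. Map1lc3b had 5 matches, Pink1 and Ulk1 had 1 each, and Fundc1, Gabarapl1 and Sqstm1 had 0. Thus Sqstm1, which also rose with hypoxia, had 0 matches, and Ulk1, which was called lower, had 1. Either core was in 5 of the 8 windows and in 43.8% of the 32851 mouse windows. ACGTG was in 2 of the 8 and in 19.6% of all windows, GCGTG in 5 and 32.4%, and CACGTG, which contains ACGTG on both strands, in 1 and 7.15%. A match is a run of letters and says nothing of binding by a factor.

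Genes whose pattern over the 8 libraries was most like that of Bnip3 or Ddit4 were sought by Pearson correlation of log2 CPM among 10566 tested genes whose counts averaged 50 or more. Nearest to Bnip3 were Nampt (r = 0.995), Bhlhe40 (r = 0.994) and Pgm1 (r = 0.992). Nampt had mean levels of 179 CPM in WT normoxia, 512 in WT hypoxia, 154 in FIH-KO normoxia and 546 in FIH-KO hypoxia. Nearest to Ddit4 were Cyp26b1 (r = 0.991), Zfp46 (r = 0.989) and Tbce (r = 0.988). Cyp26b1, an enzyme that degrades retinoic acid, had means of 1.17, 8.61, 4.63 and 12.8 CPM in the same order of groups, while Tbce moved over a narrow span, from 28.1 to 36.2 CPM. The 8 libraries form 4 groups of 2, so these correlations describe the order of the groups and carry no p.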

How the data were processed

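The authors prepared 8 libraries with a stranded mRNA kit, used STAR for alignment (GRCm39) and obtained gene counts from HTSeq. What they deposited were raw counts for 53700 genes. The labels also name GRCm38, and the annotation release, strand setting and rule for multiple matches were not given in the sources used here. Groups were taken from the titles and descriptions of the samples, which give 4 groups of 2; the design text of the series names the WT hypoxia group in the place of FIH-KO hypoxia. Genes were matched by symbol, and 52610 of the 53700 gene IDs (98%) were found in GENCODE vM39, which gave positions, exon lengths and overlaps. Total counts ran from 14519731 to 18177016 per library. Replicate libraries differed by more than sampling noise (chi-square per degree of freedom from 5.66 in WT normoxia to 23.3 in FIH-KO hypoxia).

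Counts were filtered with filterByExpr by group (13933 genes kept), scaled by TMM (factors 0.983 to 1.02) and fitted with 1 mean per group in edgeR 4.0.16 (R 4.3.3) by the quasi-likelihood test, with Benjamini-Hochberg adjustment over all tested genes and a threshold of 0.05. The common biological coefficient of variation was 11.7%. CPM used TMM-scaled library sizes, log2 CPM a prior count of 2, and standard errors are the log2 fold change divided by the square root of F. Alternatives were the DESeq2 1.42.0 Wald test, RLE scaling, no filter beyond 1 read in any library, fits of only the 4 libraries compared, a replicate block, and leaving out each library. For genes named from lists and for list counts they were added after the data were seen. In the fit with no filter, p was the normal tail of the log2 fold change over its SE, so the spread was in effect taken as known. For Bnip3 in WT hypoxia the SE was 0.14 there and 0.248 in the main fit. The p-values of that fit are not comparable with the others. The procedure was also run on simulated data, but the outcome is not given here and is not used as support.

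The 10 genes and the 11 lists (122 genes: mitophagy receptors and adaptors, mitophagy regulators around PINK1, ULK and class III PI3K complexes, ATG8 family and its conjugation, mTORC1 and its regulators, lysosome and TFEB genes, HIF target genes as a check of the hypoxia label, ATF4 target genes, epithelial, mesenchymal and other cell type markers) were chosen with earlier results of these data known, and no list has a test of its own. Named from a list were up to 2 genes called higher and 2 called lower per comparison, with a mean of at least 50 counts and the largest changes; label and marker genes, Hif1an and the 10 genes could always be named. List genes too low to be tested, and genes that overlap the 10, were named after the data were seen. Promoter windows are from RefSeq (GRCm38.p6). Figures were drawn with matplotlib 3.10.9.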

Additional observations from a re-analysis of the deposited data

How the results depend on the processing

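Over 13 alternatives, or 12 for the difference between oxygen conditions, 638 of 704 values of the 10 genes and Hif1an kept their direction and side of the threshold, 30 lost the threshold, 14 gained it and 22 changed sign; where not stated, the cause was not tested. Among the called effects, those of hypoxia on Bnip3, Bnip3l and Ddit4, that of hypoxia on Sqstm1 in WT cells, and those of the FIH-KO genotype on Pink1 and Map1lc3b, on Ddit4 in normoxia and on Fundc1 in hypoxia, passed the threshold under every alternative run. A left-out library leaves a group of 1, which is assumed to vary like the others.

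Of the 10 genes, the number called in FIH-KO hypoxia against normoxia went from 5 to 3 in the fit of 4 libraries (all genes from 2345 to 1289), and that in FIH-KO against WT in hypoxia from 3 to 5 with no filter (all genes from 3896 to 4264). For the difference between oxygen conditions, DESeq2 called 1 of the 10 and 40 genes in all, and no filter 2 and 143. The fit with no filter took the spread as known, so its calls carry less weight.

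Leaving out 1 library, all genes called ranged from 2124 to 5270 for hypoxia in WT cells (4509 with all libraries), 1097 to 2604 for hypoxia in FIH-KO cells, 1735 to 4672 for FIH-KO against WT in normoxia (3933), 2170 to 3887 in hypoxia (3896), and 0 to 39 for the difference. The 10 genes called ranged from 3 to 5 for hypoxia in FIH-KO cells and from 3 to 6 for FIH-KO against WT in normoxia. Log2 fold changes whose sign changed ranged from -0.592 to 0.195 for Bnip3 and -0.0151 to 0.446 for Bnip3l in FIH-KO against WT in normoxia, -0.00024 to 0.175 for Pink1 and -0.0263 to 0.108 for Hif1an in WT hypoxia, -0.572 to 0.0839 for Pink1 and -0.322 to 0.0602 for Gabarapl1 in FIH-KO hypoxia, -0.601 to 0.0264 for Sqstm1 in FIH-KO against WT in hypoxia, and, for the difference, -0.153 to 0.308 for Bnip3l and -0.115 to 0.109 for Ulk1. The difference for Bnip3l, near 0, was also 0.00877 with DESeq2, 0.0088 with RLE and 0.0173 with no filter.

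Nothing in the labels says that shared replicate numbers pair the libraries. Correlations of the deviations between groups lay between -0.01 and 0.19, while Bnip3, Bnip3l and Ddit4 were higher in replicate 1 in each of the 4 groups. With the replicate block the 10 genes called in FIH-KO against WT in hypoxia went from 3 to 5 (Bnip3 and Ddit4 added, all genes from 3896 to 4039), and for the difference from 0 to 1 (Ddit4), with 5 genes in all; the difference for Bnip3l was 0.0182 under this replicate block.

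Of 97 values named by the rule from the lists, 45 were called under every alternative and 52 lost the call under 1 or more. Each group had 2 libraries, and a p that misses the threshold does not show that a gene is unchanged.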

Other observations

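Genes of the integrated stress response, followed as 10 target genes of the transcription factor ATF4, were mostly higher in hypoxia, as was Ddit4. Of all tested genes, hypoxia raised 16.9% in WT cells and 8.84% in FIH-KO cells. In WT cells 9 of 10 were higher in hypoxia (median log2 fold change 2.27), and in FIH-KO cells 8 of 10 were (median 1.71), with 8 to 9 under the alternatives in each genotype. Ddit3, which encodes the stress factor CHOP, rose by 4.34 in WT hypoxia (SE 0.33, adjusted p = 6.99e-06, edgeR) and by 2.57 in FIH-KO hypoxia (SE 0.29, adjusted p = 0.000169). Trib3, a pseudokinase gene, rose in FIH-KO hypoxia from a mean of 23.6 to 228 CPM. Between genotypes the list went the other way for part of its genes. FIH-KO cells had 2 higher and 4 lower in normoxia (median -0.01), and 0 higher and 4 lower in hypoxia by edgeR (median -0.50). Over all tested genes the shares were 15.2% higher and 13% lower in normoxia, and 14.1% and 13.9% in hypoxia. The 2 higher became 0 without WT normoxia library 1 or FIH-KO normoxia library 1. Ddit3 was among the higher in normoxia, by 1.36 (SE 0.34, adjusted p = 0.0111, edgeR), and lost the call without those same libraries. Its log2 fold change there lay between 1.1 and 1.59 over the alternatives. Of the lower genes, Vldlr, a lipoprotein receptor gene, had the largest difference, at means of 2.64 CPM in WT normoxia and 62.5 in WT hypoxia against 0.0298 and 0.718 in FIH-KO cells, and was called lower in both under each of 13 alternatives. Psat1, an enzyme of serine synthesis, was at 579 ± 8.11 CPM in WT normoxia and 279.7 ± 46.8 in FIH-KO normoxia (SD, n = 2), a log2 fold change of -1.05 (SE 0.15, adjusted p = 0.000363). Phgdh, of the same pathway, was lower in FIH-KO hypoxia with a log2 fold change of -0.87 (SE 0.13, adjusted p = 0.000632). Whether these changes are linked to those of Ddit4 was not tested.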
